A study of Mus musculus with 6 samples.

Results

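The 30 genes described here cover the synthesis of cholesterol, its control by sterols, and the transport and breakdown of cholesterol and lipoproteins in the hippocampus. They were taken as a given list of symbols from the 25239 genes counted in each library, and all 30 were found. The samples were hippocampi of male C57BL/6 mice aged 6 to 8 weeks, 3 WT (Ube3am+/p+) mice and 3 Ube3am-/p+ mice, with 1 RNA-seq library per mouse. Ube3am-/p+ mice, a model of Angelman syndrome, lack a functional maternal copy of *Ube3a* and keep the paternal copy, which is silent in most neurons, so that other cells of the tissue can still express the gene. The comparison asks which of these genes differ in expression when maternal *Ube3a* is missing. The tissue is a mixture of cells, and in such bulk samples fewer cells of a type and less RNA per cell cannot be told apart.

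The brain makes nearly all of its own cholesterol, because lipoproteins of the blood do not cross the blood-brain barrier. Acetyl-CoA is built up through mevalonate to farnesyl diphosphate and squalene, and squalene is closed into a ring and trimmed to cholesterol. When sterols are low, SCAP carries the SREBP transcription factors from the endoplasmic reticulum to the Golgi, where they are released to switch on genes of the pathway. When sterols are high, the INSIG proteins hold SCAP back. Astrocytes export cholesterol on particles with apolipoprotein E, lipoprotein receptors on other cells take them up, and neurons dispose of excess cholesterol as 24S-hydroxycholesterol. Oligodendrocytes need large amounts of cholesterol for myelin.

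Promoter sequences are shown for 4 genes that recur below, *Hmgcs1*, *Idi1* and *Msmo1* as enzymes with lower values in Ube3am-/p+ mice and *Srebf2* as a regulator with higher values. Each sequence runs 5′ to 3′ from 250 bases before to 50 bases after the start of the gene in RefSeq (GRCm38.p6). Capitals mark the CCAAT box (CCAAT, or ATTGG on the other strand), which the factor NF-Y binds beside SREBP at many genes of the pathway, and the sterol-response-like letters CACNCCAC, both searched on both strands. The windows lie at chr13:119690101-119690400 (plus strand), chr13:8885356-8885655 (plus strand), chr8:64733529-64733828 (minus strand) and chr15:82147019-82147318 (plus strand).
Hmgcs1: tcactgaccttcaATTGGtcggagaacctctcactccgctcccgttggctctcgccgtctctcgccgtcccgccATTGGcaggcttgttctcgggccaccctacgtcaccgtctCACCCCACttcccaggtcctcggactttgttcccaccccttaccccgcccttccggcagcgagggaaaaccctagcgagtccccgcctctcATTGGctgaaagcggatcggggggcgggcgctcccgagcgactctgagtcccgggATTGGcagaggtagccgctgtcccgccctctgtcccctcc
Idi1: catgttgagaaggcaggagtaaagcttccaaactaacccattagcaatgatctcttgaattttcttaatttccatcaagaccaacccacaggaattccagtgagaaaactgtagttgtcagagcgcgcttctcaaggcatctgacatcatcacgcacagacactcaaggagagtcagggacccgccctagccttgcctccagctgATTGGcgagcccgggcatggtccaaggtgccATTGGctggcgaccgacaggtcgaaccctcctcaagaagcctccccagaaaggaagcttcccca
Msmo1: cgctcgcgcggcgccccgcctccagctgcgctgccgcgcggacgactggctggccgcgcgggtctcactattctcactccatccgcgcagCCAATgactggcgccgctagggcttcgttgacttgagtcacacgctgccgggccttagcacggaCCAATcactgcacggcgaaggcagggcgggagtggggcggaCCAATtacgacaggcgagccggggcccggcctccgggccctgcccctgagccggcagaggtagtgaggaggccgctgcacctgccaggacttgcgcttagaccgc
Srebf2: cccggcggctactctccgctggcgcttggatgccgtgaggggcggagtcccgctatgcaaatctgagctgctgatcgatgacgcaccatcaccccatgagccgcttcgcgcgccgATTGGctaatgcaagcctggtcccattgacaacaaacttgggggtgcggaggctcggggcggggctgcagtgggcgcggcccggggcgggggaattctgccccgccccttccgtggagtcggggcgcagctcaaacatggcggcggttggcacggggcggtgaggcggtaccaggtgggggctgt

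The *Hmgcs1* window held 4 CCAAT boxes and 1 match to CACNCCAC, *Msmo1* held 3 CCAAT boxes, *Idi1* held 2 and *Srebf2* held 1. Of the 30 genes, 24 had a promoter in the RefSeq table and 19 of these (79.2%) held a CCAAT box, against 41.1% of all 27025 genes with a promoter. The GC box GGGCGG was found in 22 of 24 (91.7%), against 38.2% of all genes. CACNCCAC was found in 3 of 24 (12.5%), *Hmgcs1*, *Acat2* and *Insig1*, against 7.12% of all genes. These are matches of letters in a short window and not measured binding sites. The shares of all genes were not limited to genes expressed in the hippocampus, so they are not matched to the members for expression. Genes with a lower and genes with a higher value in Ube3am-/p+ mice both held CCAAT boxes, as the 4 sequences show.

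The libraries held 7293272 to 8675252 counts on genes in WT mice and 8871052 to 11314409 in Ube3am-/p+ mice. Values are given as CPM, the count of a gene scaled to a library of 1000000 counts on genes. Fold changes are log2 of Ube3am-/p+ over WT, fitted with edgeR (TMM scaling, quasi-likelihood) to the 14445 genes that passed a filter on low counts, all 30 members among them. A gene was called at a Benjamini-Hochberg adjusted p below 0.05 with a fold change above 1.2. *Ube3a* itself had 104, 141 and 151 CPM in WT mice 1, 2 and 3 and 96.8, 82.9 and 80.6 CPM in Ube3am-/p+ mice 1, 2 and 3, with a fitted log2 ratio of -0.58 (SE 0.12, adjusted p = 0.0363, edgeR). The adjusted p of *Ube3a* was 0.142 to 0.251 (edgeR) without WT mouse 2, WT mouse 3, Ube3am-/p+ mouse 2 or Ube3am-/p+ mouse 3. The libraries also differed in how expression followed the GC content of the transcripts. For each library, the deviation of 14201 genes from their average over the 6 libraries was set against GC content. Spearman's rho came to 0.0455, -0.506 and -0.571 for WT mice 1, 2 and 3, while Ube3am-/p+ mice 1, 2 and 3 gave 0.0588, 0.526 and 0.528. The mice numbered 1 were therefore alike in this respect, and the other mice stood on opposite sides by genotype. For this reason the fold changes of *Ube3a* and of the 30 members are also given after every library was corrected for GC content and transcript length. For *Ube3a*, whose direction was kept, the corrected log2 ratio was -0.20 (SE 0.08, adjusted p = 0.24, edgeR). The genes outside the list and the markers of cell types are given without this correction.

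Of the 30 genes, 1 was called, *Lpl*, which was lower in Ube3am-/p+ mice. Over all genes tested the same rule called 2.01%. At an unadjusted p below 0.05, 5 members (16.7%) were lower, against 12.4% of all genes, and 7 members (23.3%) were higher, against 12.2% of all genes. The CPM of the genotypes did not overlap in 5 members that were lower (16.7%, against 14.2% of all genes) and in 5 that were higher (16.7%, against 10.8% of all genes). The median log2 fold change of the 30 members was -0.02 and that of all genes was 0.00, so the list as a whole lay at the level of the transcriptome, with single members on both sides of it. The count of called members depended on the libraries. It was 0 without WT mouse 2, WT mouse 3, Ube3am-/p+ mouse 2 or Ube3am-/p+ mouse 3, and in these 4 settings edgeR called at most 2 of all genes, with 1022 to 1235 lower and 1023 to 1194 higher at an unadjusted p below 0.05. It was 8 without WT mouse 1 (*Apoe*, *Idi1*, *Lpl*, *Lrp1*, *Msmo1*, *Pmvk*, *Scap* and *Srebf2*), and 7 without Ube3am-/p+ mouse 1 (*Apoe*, *Idi1*, *Lpl*, *Msmo1*, *Pmvk*, *Scap* and *Srebf1*). The latter settings called 17.6% and 12.5% of all genes.

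**Figure D1:**
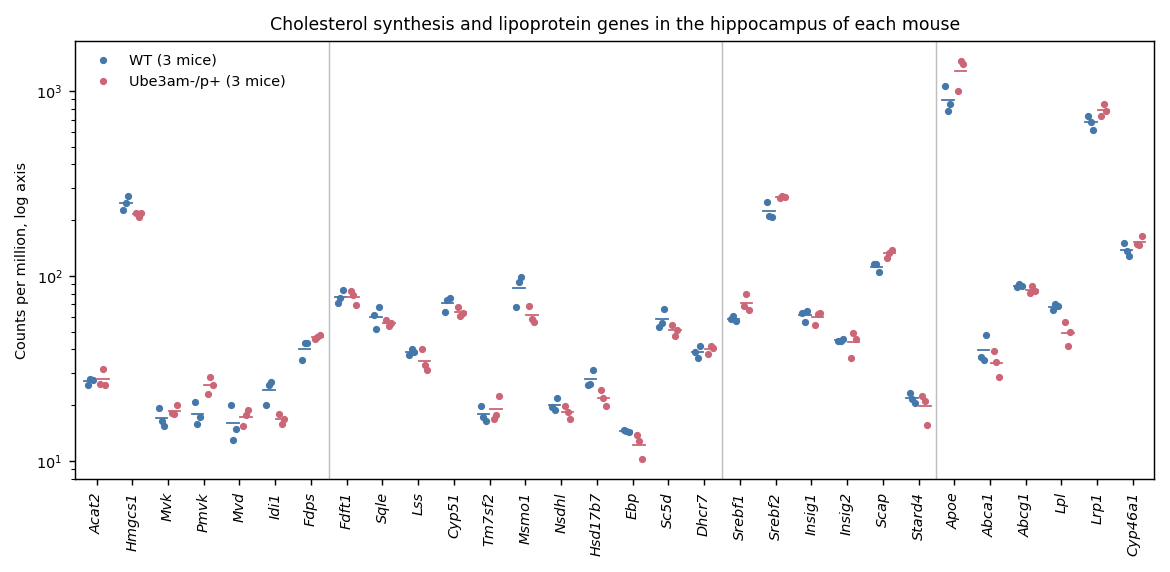
CPM (log axis) of the 30 genes in each mouse, with WT mice in blue, Ube3am-/p+ mice in red, 1 point per mouse and a line at the mean of 3 mice. Grey lines part the early synthesis steps, the steps from squalene, the SREBP control genes and the lipoprotein genes. *Lpl* lay between 65.4 and 70.4 CPM in WT mice and between 42.0 and 56.4 CPM in Ube3am-/p+ mice, without overlap.

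Levels between genes were compared per length, as TPM (counts per base of exon, scaled to a sum of 1000000) over the annotated exons. In WT mice *Apoe*, the main apolipoprotein of the brain, was the most abundant of the 30 at 1910 ± 305 TPM (SD, n = 3). The next were *Hmgcs1*, the cytosolic HMG-CoA synthase, at 246 ± 22.3 TPM, *Cyp46a1*, the neuronal cholesterol 24-hydroxylase, at 192 ± 14.3 TPM, *Lrp1*, a receptor for apolipoprotein E, at 174 ± 15.1 TPM, and *Srebf2*, which encodes the SREBP that drives cholesterol synthesis, at 142 ± 14.0 TPM (SD, n = 3 each). The values of *Cyp46a1* and *Lrp1* lay within about 1 SD of each other. The lowest were *Lss*, *Abca1*, *Stard4* and *Tm7sf2*, between 16.4 and 18.5 TPM, whose SDs of 0.781 to 3.06 TPM overlapped. The order can depend on the length used. All annotated exons of *Lss* cover 10787 bp and its longest transcript 6992 bp, and for *Lpl* these are 10478 bp and 4115 bp. *Srebf2* was above *Srebf1* (47.5 ± 1.57 TPM), and *Insig1* (90.5 ± 6.34 TPM) was above *Insig2* (59.1 ± 1.07 TPM).

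**Figure D2:**
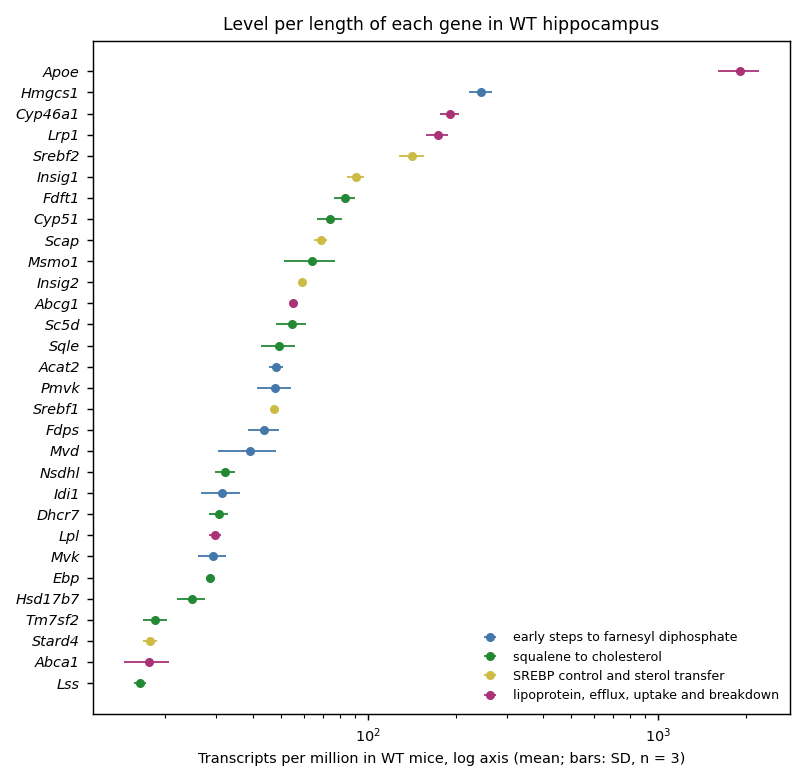
TPM over all annotated exons (log axis, mean with SD as bars, 3 WT mice) of the 30 genes, sorted by level and coloured by role. *Apoe* stood apart at 1910 TPM, and the synthesis enzymes lay between 16.4 TPM (*Lss*) and 83.2 TPM (*Fdft1*) except *Hmgcs1* at 246 TPM.

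The early steps, from acetyl-CoA to farnesyl diphosphate, were measured through 7 genes. None was called, and the median log2 fold change was 0.13. At an unadjusted p below 0.05, 2 were lower (28.6%, against 12.4% of all genes) and 2 were higher (28.6%, against 12.2% of all genes). *Idi1*, the isomerase that turns isopentenyl diphosphate into its reactive form, had 20.0, 25.7 and 26.6 CPM in WT mice 1, 2 and 3 and 17.8, 15.9 and 16.8 CPM in Ube3am-/p+ mice 1, 2 and 3. Every Ube3am-/p+ mouse was below every WT mouse, and WT mouse 1 was nearest to them. The log2 fold change was -0.50 (SE 0.14, adjusted p = 0.059, edgeR), and -0.30 (adjusted p = 0.249, edgeR) after the GC and length correction. *Hmgcs1* had 226, 247 and 269 CPM in WT mice and 220, 208 and 218 CPM in Ube3am-/p+ mice. These ranges too did not overlap, but the gap between them was narrow, and the log2 fold change of -0.18 (SE 0.08, adjusted p = 0.194, edgeR) went to -0.01 after the correction.

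*Pmvk*, the phosphomevalonate kinase, lay on the other side of WT. It had 20.8, 15.8 and 17.3 CPM in WT mice 1, 2 and 3 and 22.9, 28.5 and 25.6 CPM in Ube3am-/p+ mice 1, 2 and 3. All 3 Ube3am-/p+ mice were above all WT mice, and the mice numbered 1 were the closest pair. The log2 fold change was 0.53 (SE 0.14, adjusted p = 0.0527, edgeR) and 0.27 (adjusted p = 0.294, edgeR) after the correction. *Fdps*, which makes farnesyl diphosphate, had 35.0, 43.2 and 43.2 CPM in WT mice and 45.3, 46.9 and 48.1 CPM in Ube3am-/p+ mice. Here the lowest value was that of WT mouse 1, and the log2 fold change changed little with the correction (0.23 before, adjusted p = 0.198, and 0.19 after, adjusted p = 0.369, edgeR). *Mvk*, the mevalonate kinase, *Mvd*, the mevalonate diphosphate decarboxylase, and *Acat2*, the cytosolic thiolase that makes acetoacetyl-CoA, had overlapping values in the genotypes, and their log2 fold changes were 0.14, 0.13 and 0.06 (adjusted p from 0.553 to 0.787, edgeR). After the correction *Acat2* was at 0.03, and *Mvk* and *Mvd* turned to -0.04 and -0.13. Consecutive enzymes of the mevalonate route (*Mvk*, *Pmvk*, *Mvd*, *Idi1*, *Fdps*) thus did not share a direction that passed the test.

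The steps from squalene to cholesterol were measured through 11 genes, of which none was called. At an unadjusted p below 0.05 (edgeR), 2 were lower (18.2%, against 12.4% of all genes) and none was higher. The log2 fold change was below 0 in 8 and above 0 in 3, with a median of -0.14. *Msmo1*, the methylsterol oxidase that removes methyl groups from the sterol ring, had 67.5, 93.1 and 98.6 CPM in WT mice 1, 2 and 3 and 69.1, 58.2 and 56.5 CPM in Ube3am-/p+ mice 1, 2 and 3. The ranges overlapped because WT mouse 1 was below Ube3am-/p+ mouse 1, while the other WT mice were far above all Ube3am-/p+ mice. The log2 fold change was -0.48 (SE 0.13, adjusted p = 0.0576, edgeR), and -0.35 (SE 0.10, adjusted p = 0.0741, edgeR) after the correction, when *Msmo1* had the smallest p of the 30 members. *Hsd17b7*, the 3-keto reductase that acts in the same removal of methyl groups, had 25.7, 26.1 and 31.0 CPM in WT mice and 24.1, 21.8 and 19.8 CPM in Ube3am-/p+ mice. All WT mice were above all Ube3am-/p+ mice, with a log2 fold change of -0.31 (SE 0.12, adjusted p = 0.139, edgeR) that was -0.15 after the correction.

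*Nsdhl*, the dehydrogenase of the same demethylation steps, had 18.9 to 21.9 CPM in WT mice and 16.7 to 19.7 CPM in Ube3am-/p+ mice, and its log2 fold change was -0.12 (adjusted p = 0.589, edgeR), or -0.05 after the correction. *Ebp*, the sterol isomerase, had 14.3 to 14.7 CPM in WT mice and 10.2 to 13.8 CPM in Ube3am-/p+ mice. The WT mice were almost equal and all above the Ube3am-/p+ mice, and *Ebp* was the member of this group whose log2 fold change grew with the correction, from -0.23 (adjusted p = 0.375, edgeR) to -0.31 (adjusted p = 0.347, edgeR). *Cyp51*, the lanosterol demethylase, *Lss*, which closes squalene epoxide into lanosterol, *Sqle*, the squalene epoxidase, and *Sc5d*, a late desaturase, had log2 fold changes of -0.15, -0.14, -0.09 and -0.18. Their values overlapped between the genotypes, adjusted p ran from 0.308 to 0.643 (edgeR), and after the correction they were at -0.06, -0.09, -0.05 and 0.02, so that *Sc5d* turned its sign. *Fdft1*, the squalene synthase, *Tm7sf2*, a sterol reductase, and *Dhcr7*, which completes cholesterol, had log2 fold changes of 0.01, 0.11 and 0.06 (adjusted p from 0.69 to 0.942, edgeR). The sign of *Fdft1* turned when libraries were scaled by their size only and, like that of *Dhcr7*, with the correction (-0.05 and -0.03, with *Tm7sf2* at 0.07), so that no direction can be given for either gene.

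Summed over the 18 synthesis enzymes, the level was 840, 892 and 970 CPM in WT mice 1, 2 and 3 and 849, 810 and 809 CPM in Ube3am-/p+ mice 1, 2 and 3. The mice numbered 1 were close to each other, and the sum of WT mouse 1 lay between those of Ube3am-/p+ mice 1 and 2. *Hmgcs1* alone gave more than any other enzyme to this sum.

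**Figure D3:**
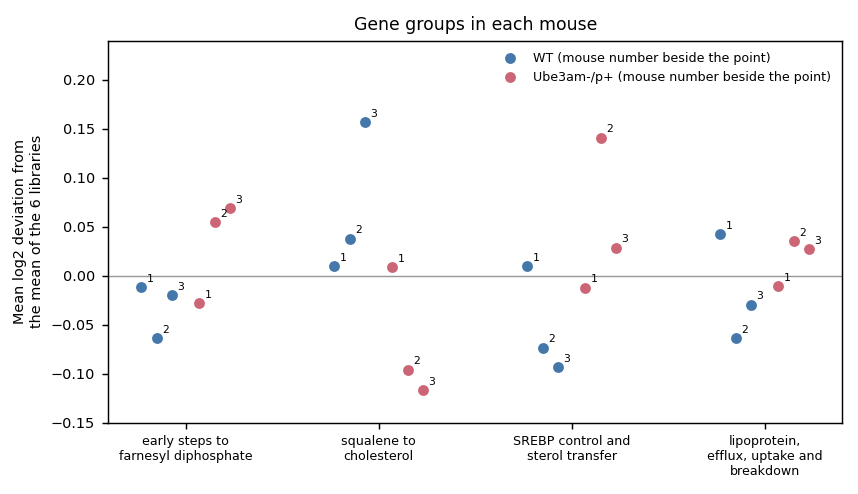
Mean log2 deviation of each gene group from the mean of the 6 libraries, 1 point per mouse with its number, WT mice in blue and Ube3am-/p+ mice in red. For the steps from squalene the mice numbered 1 were at 0.0095 (WT) and 0.0086 (Ube3am-/p+), between WT mouse 3 at 0.157 and Ube3am-/p+ mouse 3 at -0.117.

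Genes of the sterol sensor were measured through 6 members, of which none was called. At an unadjusted p below 0.05, 3 were higher (50%, against 12.2% of all genes) and none was lower. *Srebf2* had 251, 210 and 209 CPM in WT mice 1, 2 and 3 and 263, 270 and 267 CPM in Ube3am-/p+ mice 1, 2 and 3. The Ube3am-/p+ mice were within 8 CPM of each other and above all WT mice, of which mouse 1 came nearest. The log2 fold change was 0.27 (SE 0.09, adjusted p = 0.084, edgeR). *Srebf1*, which encodes the SREBP proteins that mainly drive fatty acid synthesis, had 58.5, 60.4 and 57.2 CPM in WT mice and 68.8, 79.4 and 65.4 CPM in Ube3am-/p+ mice, a log2 fold change of 0.30 (SE 0.10, adjusted p = 0.0869, edgeR). *Scap*, the escort of the SREBP proteins, had 115, 116 and 105 CPM in WT mice and 125, 133 and 138 CPM in Ube3am-/p+ mice, a log2 fold change of 0.26 (SE 0.09, adjusted p = 0.0961, edgeR). In all 3 genes every Ube3am-/p+ mouse was above every WT mouse, and in all 3 the fold change was smaller after the correction, at 0.10, 0.09 and 0.04 for *Srebf2*, *Srebf1* and *Scap* (adjusted p from 0.524 to 0.862, edgeR).

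The INSIG genes and the sterol carrier of the list stayed near the level of WT mice. *Insig1*, itself a target of SREBP in many cells, had 56.1 to 64.9 CPM in WT mice and 54.3 to 63.0 CPM in Ube3am-/p+ mice. *Insig2* had 44.5 to 45.8 CPM in WT mice and spread more widely in Ube3am-/p+ mice, from 36.1 CPM in mouse 1 to 49.3 CPM in mouse 2. Both had a log2 fold change of -0.02 (SE 0.10 and 0.12, adjusted p = 0.935 and 0.93, edgeR), and the sign of both turned with the correction, to 0.01 and 0.07. *Stard4*, which carries cholesterol between membranes, had 20.4 to 23.2 CPM in WT mice and 15.6 to 22.4 CPM in Ube3am-/p+ mice, with a log2 fold change of -0.13 (SE 0.14, adjusted p = 0.609, edgeR) that turned to 0.03.

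The members that act on lipoproteins and on the removal of cholesterol included the called gene. *Lpl* encodes lipoprotein lipase, the enzyme that splits triglycerides of lipoproteins so that cells can take up the fatty acids. It lies on chromosome 8 (68880491 to 68907448, plus strand, GRCm38). It had 65.4, 70.4 and 69.0 CPM in WT mice 1, 2 and 3 and 56.4, 42.0 and 49.5 CPM in Ube3am-/p+ mice 1, 2 and 3. The WT mice were close together and all above the Ube3am-/p+ mice, among which mouse 1 was the highest. This was 68.3 ± 2.60 CPM against 49.3 ± 7.19 CPM (SD, n = 3 each), 1.37-fold lower in Ube3am-/p+ mice, with a log2 fold change of -0.46 (SE 0.11, adjusted p = 0.0427, edgeR). After the correction the log2 fold change was -0.30 (SE 0.09, adjusted p = 0.102, edgeR), and the genotypes still did not overlap. When mice were left out one at a time it ran from -0.55 to -0.34, and the adjusted p from 0.007 to 0.272 (edgeR). The adjusted p was above 0.05 without WT mouse 2, WT mouse 3, Ube3am-/p+ mouse 2 or Ube3am-/p+ mouse 3.

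*Apoe* had 1066, 774 and 849 CPM in WT mice 1, 2 and 3 and 993, 1456 and 1397 CPM in Ube3am-/p+ mice 1, 2 and 3. The genotypes overlapped, since WT mouse 1 was above Ube3am-/p+ mouse 1, while Ube3am-/p+ mice 2 and 3 were far above all others. Its log2 fold change of 0.54 (SE 0.16, adjusted p = 0.0819, edgeR) was the largest positive value among the members and did not pass the test. It was 0.23 (adjusted p = 0.216, edgeR) after the correction. *Lrp1* had 736, 678 and 612 CPM in WT mice and 734, 844 and 774 CPM in Ube3am-/p+ mice. Its mice numbered 1 were nearly equal, and the log2 fold change was 0.23 (SE 0.09, adjusted p = 0.138, edgeR), or 0.09 after the correction.

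*Cyp46a1* had 128 to 150 CPM in WT mice and 147 to 164 CPM in Ube3am-/p+ mice, and its log2 fold change of 0.16 (SE 0.09, adjusted p = 0.273, edgeR) turned to -0.07 with the correction. The pumps that load cholesterol onto apolipoproteins, *Abca1* and *Abcg1*, had log2 fold changes of -0.21 and -0.06 (adjusted p = 0.348 and 0.724, edgeR), and both were at -0.11 after the correction. *Abca1* spread from 35.0 to 47.7 CPM in WT mice and from 28.5 to 39.1 CPM in Ube3am-/p+ mice. *Abcg1* was narrow in both, at 87.0 to 89.8 CPM and 80.9 to 88.0 CPM. Both pumps are targets of the liver X receptors, as is *Apoe*, and the 3 genes did not share a direction that passed the test.

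**Figure D4:**
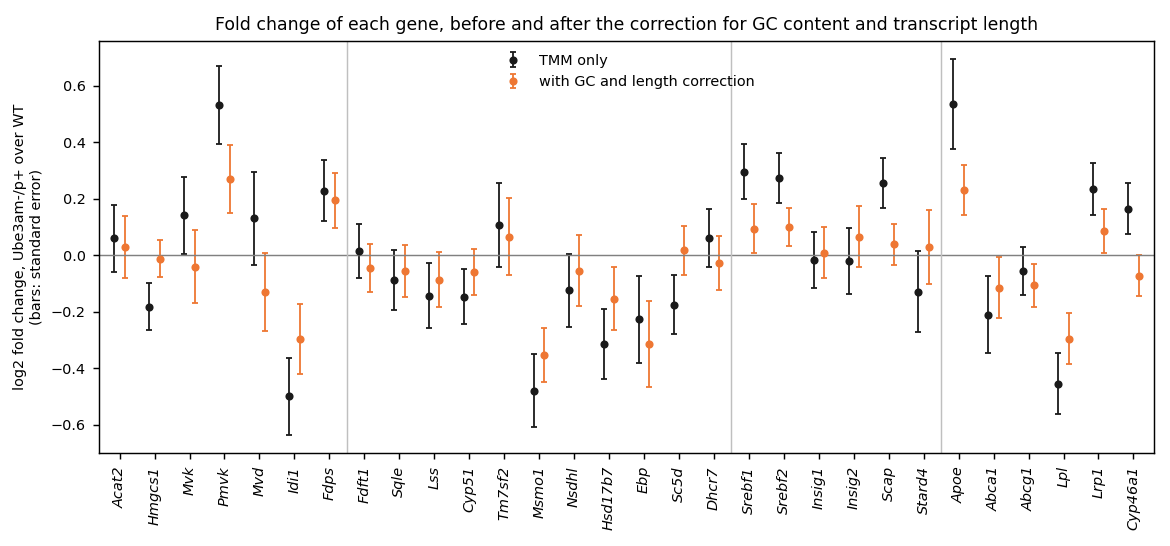
Log2 fold change (Ube3am-/p+ over WT, bars are standard errors derived from the F test) of the 30 genes. Black points used TMM scaling, and orange points came after each library was corrected for GC content and transcript length. The median size of the fold change was 0.17 before and 0.08 after, with *Msmo1* at -0.35 the largest size after the correction.

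The fold changes of the 30 genes followed the GC content of their transcripts. Among the 15 members with the lower GC content (41.9% to 49.6%), 14 had a log2 fold change below 0, with a median of -0.15. Among the 15 with the higher GC content (50.6% to 59.5%), 13 had a log2 fold change above 0, with a median of 0.16. Spearman's rho between GC content and log2 fold change was 0.867 over the 30 members and 0.622 over 14201 genes tested, all taken from the same 6 libraries and given as a description across genes. *Idi1*, *Lpl*, *Hmgcs1*, *Hsd17b7* and *Msmo1*, the members that were lower at an unadjusted p below 0.05, had 41.9% to 44.7% GC. The 7 that were higher had 50.6% to 59.5% GC. After the correction 21 of the 30 members kept their sign, 4 were lower and 2 were higher at an unadjusted p below 0.05, against 7.34% and 6.87% of all genes, and none was called, while 0.648% of all genes were. The 4 were *Idi1*, *Lpl*, *Msmo1* and *Ebp*, and the 2 were *Pmvk* and *Apoe*. The corrected values of the members still rose with GC content (rho = 0.42), so the trend in this list was weaker but not gone. *Idi1*, *Lpl* and *Msmo1* were at 41.9% to 44.7% GC and *Ebp* at 50.9%, while *Pmvk* and *Apoe* were at 57.0% and 59.5%. Part of a difference between the genotypes that itself followed GC content would be removed by this correction as well, and such a difference and a GC effect of the libraries cannot be told apart here.

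**Figure D5:**
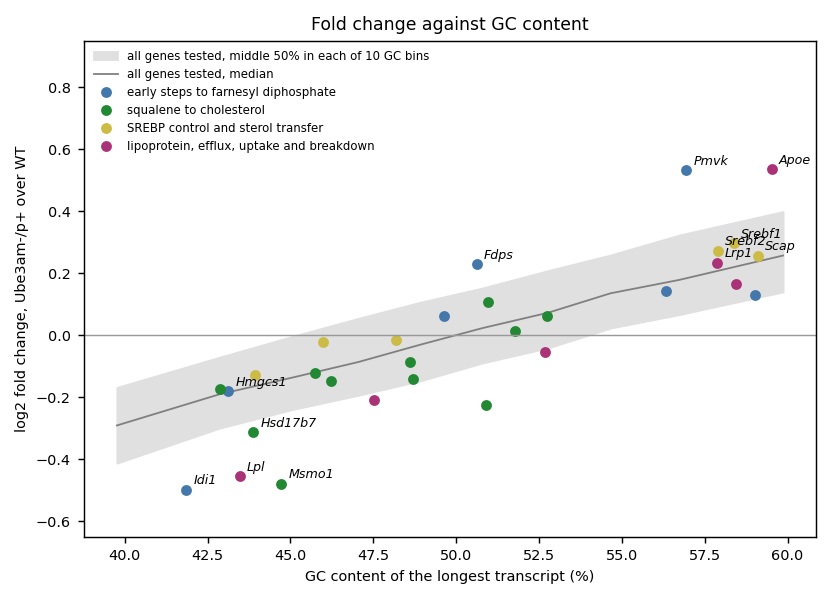
Log2 fold change (Ube3am-/p+ over WT) against the GC content of the longest transcript for the 30 genes, coloured by role, with names for members at an unadjusted p below 0.05. The grey line is the median of all genes in 10 bins of GC content, from -0.29 to 0.26, and the grey band spans the quartiles. Of the genes named in the plot, *Idi1*, *Lpl*, *Msmo1* and *Hsd17b7* lay below the band, *Pmvk*, *Fdps* and *Apoe* above it, and the others within it.

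Another 61 genes of sterol and lipid metabolism were examined, of which 55 passed the filter and none was called. At an unadjusted p below 0.05, 6 (10.9%, against 12.4% of all genes) were lower and 3 (5.45%, against 12.2% of all genes) were higher. The median log2 fold change was -0.01. For the genes with the smallest p of their group in either direction, log2 fold changes and adjusted p (edgeR) follow. *Ggps1*, which turns farnesyl diphosphate toward protein prenylation, had 58.8 to 69.9 CPM in WT mice and 42.1 to 57.7 CPM in Ube3am-/p+ mice (log2 fold change -0.37, adjusted p = 0.0746, edgeR). *Mbtps2*, the site-2 protease that frees the SREBP proteins, had 35.2 to 45.5 CPM and 30.7 to 32.5 CPM (-0.38, adjusted p = 0.0709, edgeR). These ranges did not overlap. The sign of *Mbtps2* was opposite to that of *Srebf2* and *Scap*, but so was its GC content, at 40.0% against 57.9% and 59.1%. Over all genes the median log2 fold change was -0.29 in the lowest of 10 GC bins and 0.26 in the highest. The value of *Mbtps2* is without the GC and length correction. *Rnf145*, a ubiquitin ligase of the sterol sensor, had 0.15 (adjusted p = 0.27, edgeR).

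In fatty acid synthesis, which SREBP proteins also drive, none of 11 genes was lower at an unadjusted p below 0.05. By the same rule 2 were higher (18.2%, against 12.2% of all genes). The 2 were *Acaca*, the acetyl-CoA carboxylase (0.30, adjusted p = 0.12, edgeR), and *Fasn*, the fatty acid synthase (0.18, adjusted p = 0.174, edgeR). *Fasn* had 410 to 444 CPM in WT mice and 471 to 502 CPM in Ube3am-/p+ mice, without overlap, and is named after its values were seen. The smallest p among the genes with a lower value was that of *Scd1*, a fatty acid desaturase (-0.19, adjusted p = 0.22, edgeR). Among receptors and apolipoproteins, *Mylip*, a ligase that degrades lipoprotein receptors, had -0.27 (adjusted p = 0.163, edgeR). *Nr1h3*, the liver X receptor alpha, had 0.48 (adjusted p = 0.213, edgeR) on 245 counts in the 6 libraries, and *Cyp7b1*, an oxysterol hydroxylase, had -0.24 (adjusted p = 0.367, edgeR). *Nceh1*, a cholesteryl ester hydrolase, had 161 to 169 CPM in WT mice and 131 to 145 CPM in Ube3am-/p+ mice (-0.26, adjusted p = 0.0756, edgeR), and *Npc2*, which moves cholesterol out of lysosomes, had 0.16 (adjusted p = 0.306, edgeR). *Gpihbp1*, the endothelial anchor of lipoprotein lipase, had 3 counts in the 6 libraries and was not tested.

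Markers of cell types that make or move cholesterol were measured in the same libraries, and their part in the results was not tested. For comparison, 12.4% of all genes tested were lower and 12.2% were higher at an unadjusted p below 0.05. Of 10 oligodendrocyte markers, 5 were lower and none was higher at an unadjusted p below 0.05, with a summed level of 8312 to 8451 CPM in WT mice and 6943 to 7921 CPM in Ube3am-/p+ mice. Of 8 astrocyte markers, 3 were lower (*Slc1a2*, *Gja1* and *Aqp4*) and none was higher by the same rule, while 4 had a log2 fold change above 0. Their sum was 5224 to 5635 CPM in WT mice and 4669 to 4900 CPM in Ube3am-/p+ mice, most of it *Slc1a2*, a glutamate transporter, with a mean of 3292 and 2600 CPM. Of 8 microglia markers, 2 were lower and 1 was higher, with 408 to 445 CPM and 377 to 396 CPM. Of 6 endothelial markers, 2 were lower and 1 was higher (256 to 265 CPM in WT mice, 224 to 240 CPM in Ube3am-/p+ mice), and so were 2 and 1 of 6 markers of inhibitory neurons (625 to 646 CPM and 561 to 589 CPM). The markers called were *Pdgfra*, of oligodendrocyte precursors, which was lower (log2 fold change -0.43, adjusted p = 0.0466, edgeR), and *Col1a1*, of the meninges, which was higher (0.73, adjusted p = 0.0416, edgeR). Of 6 precursor markers, 1 was lower and 1 (*Sox10*, 0.31, adjusted p = 0.0638, edgeR) was higher at an unadjusted p below 0.05. Their log2 fold change was below 0 in 3 and above 0 in 3. Their sum was 390 to 417 CPM in WT mice and 391 to 398 CPM in Ube3am-/p+ mice. Of 7 markers of the meninges, none was lower and 2 were higher (88.6 to 146 CPM and 93.5 to 173 CPM). All these markers had counts in every library, as did the 7 markers of excitatory hippocampal neurons, whose sum was 7322 to 8295 CPM in WT mice and 7873 to 8696 CPM in Ube3am-/p+ mice. The sum of 6 choroid plexus markers varied from 101 to 2260 CPM between mice of either genotype.

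For some members the counts can hold reads of other genes, or lack reads that could not be given to 1 gene. Reads listed as ambiguous (0.297% to 0.383%) or as not uniquely aligned (3.71% to 5.77%) were not counted on genes. Of the windows of 50 bases in the longest *Acat2* transcript, 45.9% also occur in a transcript of another gene, mainly its neighbours *Acat3* and *Tcp1*. The share was 30.7% for *Fdft1*, whose exons overlap *Ctsb* on the opposite strand over 774 bp, and 30.5% for *Idi1*, which shares sequence with *Gm13502* and with *Gm48574* on the opposite strand. It was 13.6% for *Hmgcs1* (*Gm48342*, opposite strand), 13.1% for *Scap* (*5830462I19Rik*, opposite strand) and 11.7% for *Fdps* (*Gm43738*), and at most 4.11% for the other 24, *Lpl* with 4.11% among them. *Tm7sf2* shares 532 bp of exon with *Vps51* on the same strand. Whether the counting used strands is not given in the sources used here, so the values of these genes are uncertain to that extent.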

How the data were processed

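Hippocampal RNA of 3 WT and 3 Ube3am-/p+ male mice was sequenced, with 1 library per mouse (Trizol extraction per the labels). The authors deposited raw counts per gene symbol, 1 file per library, without normalization or pooling, in the layout of htseq-count. The submitters' processing notes name STAR 2.7.4a, HTSeq and mm10. The annotation and the strand setting are not given in the sources used here. Reads on no gene made up 54.1% to 55.0% of the reads listed, and these lines stayed out of library sizes and tests. The libraries held 7293272 to 11314409 counts on genes.

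edgeR 4.0.16 (R 4.3.3) was used with filterByExpr, TMM factors and a robust quasi-likelihood fit of genotype alone. The tests were two-sided and the Benjamini-Hochberg adjustment ran over 14445 genes. The SE given with edgeR was derived from the test, as the size of the log2 fold change over the square root of the F statistic. It is least reliable where the fold change is near 0. Replicates are separate mice. With 3 mice against 3, an exact permutation test cannot go below p = 0.1. CPM are on total gene counts, and TPM use the union of GENCODE M21 exons (GRCm38). The GC and length correction fitted natural splines with 5 degrees of freedom on GC content and length of the longest transcript to each library, for 14201 genes (98.3%). The main edgeR fit, DESeq2 and the GC and length correction were tested on simulated data, and the other steps were not. Alternatives were DESeq2 (1.42.0), other scaling and filters, the replicate number as a block, the correction, and leaving out mice. The members and lists were chosen with earlier results of these data known. Genes were named by a rule, which covers the 30 members, *Ube3a*, the smallest p in each direction in each of the other gene groups, and genes that overlap a named gene. Values of a few genes that the rule covers are not reported here.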

Additional observations from a re-analysis of the deposited data

How the results depend on the processing

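The number of called members, 1 with the main test, was 5 with DESeq2 (*Idi1*, *Lpl*, *Msmo1*, *Pmvk* and *Srebf2*, where 4.94% of all genes were called), 5 without a filter (the same genes, with 6.1% of all genes), 2 with DESeq2 size factors in edgeR (*Lpl* and *Pmvk*, with 2.76% of all genes), 0 with the GC and length correction, 0 with the replicate block and 0 with both. Without the fold threshold it was 1. With each mouse left out in turn it ran from 0 to 8. With both mice numbered 1 left out, an alternative chosen after seeing the data, 13 members were called and 28.3% of all genes. The 5 members lower at an unadjusted p below 0.05 became 3 with the replicate block, 3 with the correction and the block together, 9 without both mice numbered 1 (where 21.6% of all genes were lower), and 3 to 7 with 1 mouse left out. The 7 higher members became 2 with the correction, 2 with the correction and the block, and 4 to 7 with 1 mouse left out. The median log2 fold change of the members ran from -0.0446 to 0.0183 with 1 mouse left out. The deviations of same-numbered mice from the genotype means correlated at -0.285, -0.177 and -0.311. These values cannot decide whether the numbers pair the mice. The mice numbered 1 lay between the others on GC content, so their deviations from the genotype means tend to be opposite. By a chi-square per degree of freedom, smaller for libraries that are more alike, WT mouse 1 and Ube3am-/p+ mouse 1 were the closest pair (3.78). The mice numbered 2 gave 15.5 and the mice numbered 3 gave 21.01. The main fit did not pair the mice. With the replicate block no gene of the whole table was called by edgeR, with 1212 lower and 1210 higher at an unadjusted p below 0.05.

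*Lpl* kept its direction under every alternative run, and so did most other members. The log2 fold change of 11 members turned its sign, and the cause was not tested. None of the 11 was called with the main test, which called only *Lpl*. One of them, *Sc5d*, was called without both mice numbered 1 (-0.29, adjusted p = 0.0356, edgeR). With the GC and length correction the values that turned were -0.0287 for *Dhcr7*, -0.0406 for *Mvk*, -0.0451 for *Fdft1*, -0.0725 for *Cyp46a1*, -0.13 for *Mvd*, 0.00934 for *Insig1*, 0.017 for *Sc5d*, 0.0295 for *Stard4* and 0.0662 for *Insig2*. With the replicate block added they were, in the same order, -0.0293, -0.0372, -0.0454, -0.0734, -0.118, 0.00566, 0.017, 0.0294 and 0.0518. *Fdft1* was at -0.00287 with library size only. Without both mice numbered 1, *Fdft1* was at -0.0861, *Insig1* at 0.0684 and *Insig2* at 0.0884. With 1 mouse left out, the values ran from -0.0272 to 0.111 for *Acat2*, -0.0332 to 0.0787 for *Fdft1*, -0.0776 to 0.0573 for *Insig1*, -0.107 to 0.106 for *Insig2*, -0.00568 to 0.338 for *Mvd*, -0.219 to 0.00853 for *Stard4* and -0.0384 to 0.196 for *Tm7sf2*.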
